A study of Mus musculus with 2 samples.

Results

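The hypoxia and glycolysis genes are 32 mouse genes, chosen by symbol, that carry out glycolysis or are known to be induced when oxygen is low. They correspond to 33 of the 32286 feature rows of each count matrix, because 2 rows carry the symbol Aldoa, and the second of these held 3 of 81228 Aldoa UMIs (unique molecular identifiers, each counting 1 captured transcript). The genes were divided into 15 constitutive glycolytic genes and 17 hypoxia-induced genes. Single cells of E13.5 mouse embryo dorsolateral and flank skin were profiled by 10x Genomics 3′ sequencing in 1 control and 1 mutant library, each from 2 to 3 pooled littermate embryos sorted after DAPI staining. Both libraries were prepared with 0.25% trypsin for 20 minutes at 37 °C. The mutant pairs the Axin2CreER recombinase with a Rosa26 allele, Rosa-lox-STOP-lox-SmoM2YFP, that expresses a constitutively active Smoothened fused to YFP once its stop cassette is removed, which switches on Hedgehog signalling in cells that expressed Axin2. The control title names the SmoM2YFP allele alone. The timing of recombinase induction and the sex of the embryos were not given in the sources used here. The titles and the genotype fields of the libraries contradict each other on which is the control; the names control and mutant are used here as the titles give them.

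Glycolysis splits glucose to pyruvate in the cytoplasm, and lactate dehydrogenase turns pyruvate into lactate, which leaves the cell through monocarboxylate transporters. The transcription factor HIF1 is destroyed when prolyl hydroxylases use oxygen to mark it, so that low oxygen stabilises it and its targets are transcribed: glucose transporters, several glycolytic enzymes, the kinases that keep pyruvate out of mitochondria, the mitophagy receptors, and the vessel growth factor Vegfa. Fetal skin is vascularised while the dermis and the epidermis form, and many glycolytic enzymes are abundant in all dividing embryonic cells.

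HIF binds DNA at a core written ACGTG or GCGTG, and both were searched on both strands (CACGT and CACGC on the reverse strand; CACGTG holds the first on both) in the 250 bases upstream of each RefSeq gene start (RefSeq promoter table, GRCm38.p6). The table held 29 of the 32 members, and Slc2a3, Bnip3l and Ndrg1 were not among them. At least 1 core was found for 27 of the 29 genes (93.1%), against 41.5% of the 27025 genes in the table. By window, the shares were 35 of 44 member windows (79.5%) and 38.6% of all 32851 windows, and a member window held 16.0 CG dinucleotides on average against 9.86 in all windows. The part of CG content in the motif shares was not tested. The 4 windows below belong to the hypoxia-induced members with the highest (Adm, Hk2) and the lowest (Pdk1, Mxi1) mutant over control ratio in dermal cells among those with a core, and the cores, or their reverse complements, are in capitals. They lie at chr7:110627407-110627656 on the plus strand for Adm, chr6:82774455-82774704 on the minus strand for Hk2, chr2:71872974-71873223 on the plus strand for Pdk1 and chr19:53329163-53329412 on the plus strand for Mxi1, each 5′ to 3′ along its gene. Pdk1 has 2 windows and Mxi1 has 3, for different starts, and the first window with a core is shown. The Mxi1 window belongs to a start inside the annotated gene, which begins at chr19:53310518. The core nearest to the start used began 54 bases upstream in Adm, 52 in Hk2, 78 in Pdk1 and 66 in Mxi1, and these are matches of letters only.
Adm: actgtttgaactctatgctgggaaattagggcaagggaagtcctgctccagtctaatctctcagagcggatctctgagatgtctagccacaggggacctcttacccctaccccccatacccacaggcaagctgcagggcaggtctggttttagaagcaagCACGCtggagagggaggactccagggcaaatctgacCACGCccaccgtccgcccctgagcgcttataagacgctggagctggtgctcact
Hk2: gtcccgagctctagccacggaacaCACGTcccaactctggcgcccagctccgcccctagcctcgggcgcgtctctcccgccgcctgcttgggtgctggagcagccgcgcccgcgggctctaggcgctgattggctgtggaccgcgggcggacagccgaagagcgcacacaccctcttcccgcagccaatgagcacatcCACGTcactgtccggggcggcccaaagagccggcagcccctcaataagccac
Pdk1: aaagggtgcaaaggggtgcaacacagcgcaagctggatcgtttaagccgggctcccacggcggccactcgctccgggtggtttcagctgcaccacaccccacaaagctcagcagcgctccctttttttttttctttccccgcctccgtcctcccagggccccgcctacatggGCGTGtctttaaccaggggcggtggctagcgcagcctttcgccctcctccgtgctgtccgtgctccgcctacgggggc
Mxi1: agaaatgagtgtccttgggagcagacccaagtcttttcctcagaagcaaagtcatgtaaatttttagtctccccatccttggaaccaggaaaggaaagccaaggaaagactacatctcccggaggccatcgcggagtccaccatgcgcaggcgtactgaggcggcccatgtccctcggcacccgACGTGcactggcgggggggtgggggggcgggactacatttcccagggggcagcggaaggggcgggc

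The control library held 13566 barcodes with 109629368 UMIs and the mutant library 11909 barcodes with 73809828 UMIs. After filters, 11527 control cells (median 7442 UMIs) and 8514 mutant cells (median 6662 UMIs) remained, and 37 barcodes occurred in both libraries. Cells were clustered without the member genes and assigned by marker genes to the 10 classes described here, beside an unnamed cluster and 9 neuron-like mutant cells that are not described, and the classes are called dermal-like, epidermal-like and so on, and dermal, epidermal and so on from here. Levels are CPM, the UMIs of a gene divided by those of all cells of its class in a library and scaled to 1000000. A gene was measured in a class when it reached 10 CPM in either library, and was called higher or lower when its levels differed by 1.5-fold or more. With 1 library per group there is no test. The ranges given after ratios and shares are exact 95% binomial intervals that cover counting error only, and differences between embryos, litters or preparations cannot be told apart from genotype. In dermal cells Ptch1, a direct Hedgehog target, stood at 5.61 CPM in the control and 246 CPM in the mutant library, and eYFP at 0.412 and 28.9 CPM, so both go with the titles. Different clusters held most dermal cells of each library: clusters 1, 2, 3, 5, 6, 8, 11, 12 and 14 in the control and clusters 0, 1, 5, 9 and 13 in the mutant, whereas clusters 7 and 10 held the epidermal cells of both.

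In the dermis, which carries the Hedgehog response, 3 of the 27 measured members were higher in the mutant library and 2 were lower. Over all 8157 genes measured there, 4.44% were higher and 4.87% lower, 9.3% in all. The 14 measured hypoxia-induced members had 3 higher (Adm, Hk2 and Slc16a3), 1 lower (Pdk1) and a median log2 ratio of 0.08, with 1 CPM added to each level. The 13 measured constitutive members had 0 higher, 1 lower (Hk1) and a median of 0.38. The median of all genes was 0.014. Adm and Slc16a1 passed the 10 CPM limit only through the mutant library and Hk1 and Ankrd37 only through the control library. Of the 23 members that reached 10 CPM in both, 2 were higher and 1 lower, against 3% and 3.14% of such genes. As grouped here, the constitutive enzymes thus lay mostly above the median of all genes by less than 1.5-fold, and the induced genes lay on both sides of it. This contrast depends on the grouping. Aldoa, Aldoc, Pgk1, Eno1 and Ldha are also HIF targets, and with these 5 moved to the induced group the medians were 0.30 for induced and 0.28 for constitutive members.

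Among the transporters, Slc2a1 (GLUT1), the main glucose carrier of most cells, stood at 15.3 CPM in control and 21.6 CPM in mutant dermal cells, a ratio of 1.41 (1.28 to 1.56). Slc16a3 (MCT4), which exports lactate from glycolytic cells, stood at 14.6 and 22.5 CPM, a ratio of 1.54 (1.40 to 1.70). Slc16a1 (MCT1), a lactate and pyruvate carrier, stood at 9.51 and 13.8 CPM, a ratio of 1.45 (1.28 to 1.65). All 3 were higher in the mutant library beyond counting error, and the ratio of Slc16a3 alone passed 1.5. Slc2a3 (GLUT3), a high-affinity glucose carrier, stayed under 10 CPM in both libraries, at 2.0 and 4.25 CPM.

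The hexokinases, which trap glucose in the cell as its phosphate, went in opposite directions. Hk2 stood at 14.6 CPM in control and 29.0 CPM in mutant dermal cells, 1.99-fold higher (1.82 to 2.19), from chr6:82725025-82774454 on the minus strand. Hk1 stood at 15.3 and 8.28 CPM, 1.85-fold lower in the mutant (1.61 to 2.13), from chr10:62268855-62379908 on the minus strand. Of the UMIs of both genes together, Hk2 made up 48.8% (46.5 to 51.0) in control and 77.8% (75.3 to 80.1) in mutant dermal cells. In epidermal cells the share was high in both libraries, at 95.5% (91.7 to 97.9) and 93.9% (91.6 to 95.7). Macrophages also had mostly Hk2, with 84.6% (79.2 to 89.0) and 90.5% (85.4 to 94.3), whereas endothelial cells had mostly Hk1, with an Hk2 share of 14.0% (5.30 to 27.9) and 7.69% (1.62 to 20.9). The dermal share of the mutant library therefore lay between those of muscle (66.2% and 60.9%) and macrophages, and that of the control library below muscle.

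**Figure D1:**
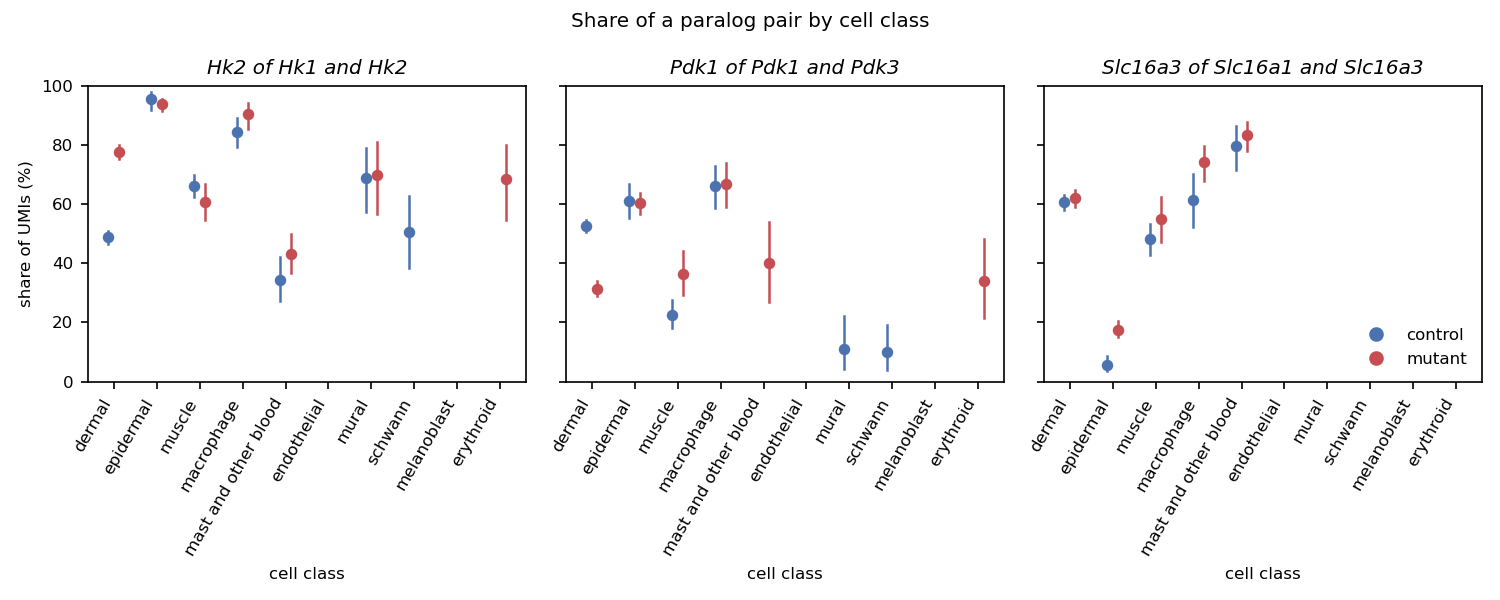
Share of UMIs (percent) taken by 1 gene of a paralog pair in each cell class, for Hk2 of Hk1 and Hk2, Pdk1 of Pdk1 and Pdk3, and Slc16a3 of Slc16a1 and Slc16a3. Points are the 2 libraries, lines are exact 95% binomial intervals, and classes with fewer than 50 UMIs of a pair in a library are left out; the dermal Hk2 share is 48.8% in control and 77.8% in mutant cells, and the intervals of the epidermal Hk2 shares overlap.

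The enzymes of the glycolytic path itself were mostly higher in mutant dermal cells by less than 1.5-fold. Pfkl, a subunit of the committing enzyme phosphofructokinase, stood at 40.2 and 59.7 CPM, a ratio of 1.48 (1.40 to 1.57). Ldha, which reduces pyruvate to lactate, stood at 427 and 603 CPM, a ratio of 1.41 (1.39 to 1.44). Pgam1, Eno1, Pgk1 and Aldoa, which act in the lower and middle steps, had ratios of 1.39, 1.36, 1.33 and 1.30, and Pkm (pyruvate kinase), Gapdh and Tpi1 had 1.23, 1.22 and 1.14. Gpi1, which converts glucose phosphate to fructose phosphate, did not share this direction, with 125 and 117 CPM and a ratio of 0.936 (0.900 to 0.973), and was higher in mutant cells in 5 of the 7 dermal clusters with at least 50 cells of each library. The muscle-type subunit Pfkm stood at 14.1 and 12.5 CPM, a ratio of 0.884 (0.784 to 0.995). Pfkp and Aldoc stayed under 10 CPM, at 4.25 and 2.76 CPM for Pfkp and 1.09 and 0.465 CPM for Aldoc. Pfkl made up 68.6% (67.1 to 70.1) of the phosphofructokinase UMIs in control and 79.6% (78.0 to 81.2) in mutant dermal cells.

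Pdk1 and Pdk3 encode kinases that inactivate pyruvate dehydrogenase and so hold pyruvate back from the mitochondria. Pdk1 stood at 20.9 CPM in control and 12.3 CPM in mutant dermal cells, 1.71-fold lower (1.52 to 1.91), from chr2:71873224-71903858 on the plus strand. Pdk3 stood at 18.8 and 26.7 CPM, a ratio of 1.42 (1.30 to 1.55). The Pdk1 share of the pair was 52.7% (50.7 to 54.7) in control and 31.5% (28.9 to 34.1) in mutant dermal cells, and 61.1% (55.2 to 66.8) and 60.4% (56.7 to 64) in epidermal cells. Bnip3 and Bnip3l, which mark mitochondria for removal, stood at 22.7 and 19.9 CPM and at 161 and 124 CPM, with ratios of 0.875 (0.796 to 0.961) and 0.774 (0.746 to 0.803). Bnip3l was lower in mutant cells in each of these 7 dermal clusters, with ratios of 0.759 to 0.985. Bnip3 was not: it was higher in 4 of the 7. Summed over the 5 clusters with at least 100 cells of each library, whose mix was not held fixed, Bnip3 stood at 23.8 and 25.7 CPM, a ratio of 1.08 (0.910 to 1.28).

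Adm, which encodes the vasodilator peptide adrenomedullin, had the highest ratio of the measured members in the dermis, where it was measured only through its level in the mutant library, just above the limit. Its 79 control UMIs gave 1.25 CPM and its 328 mutant UMIs 10.2 CPM, 8.12-fold higher (6.34 to 10.5). The gene lies at chr7:110627661-110629820 on the plus strand (GRCm38). Vegfa, by contrast, stood at 24.8 and 25.6 CPM, a ratio of 1.03 (0.946 to 1.12). Adm is also an endothelial product, and the endothelial cells held it at 24.6 CPM in control and 18.1 CPM in mutant cells. The 10 endothelial markers summed to 21.9 CPM in control and 28.0 CPM in mutant dermal cells, with 0 of 10 called higher and none at 0 in either library. The part of endothelial RNA in the dermal Adm level was not tested.

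The remaining induced genes differed little in the dermis. Egln1 and Egln3 encode prolyl hydroxylases that sense oxygen. Egln1 stood at 91.0 and 93.7 CPM, a ratio of 1.03 (0.985 to 1.08), and Egln3 at 1.22 and 1.49 CPM. P4ha1 and P4ha2, the catalytic subunits of collagen prolyl hydroxylase, had ratios of 1.17 (1.12 to 1.22) and 1.09 (1.01 to 1.18), from 100 to 117 CPM and from 26.8 to 29.2 CPM. Ankrd37, an ankyrin repeat gene induced by HIF, stood at 10.8 and 8.93 CPM, a ratio of 0.829 (0.720 to 0.953), and over the same 5 clusters at 8.18 and 8.05 CPM, a ratio of 0.985 (0.721 to 1.32). Mxi1, an antagonist of Myc, stood at 13.1 and 10.6 CPM, a ratio of 0.813 (0.714 to 0.923). Ndrg1, a stress-responsive gene, stayed just under the 10 CPM limit at 9.95 and 7.97 CPM.

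**Figure D2:**
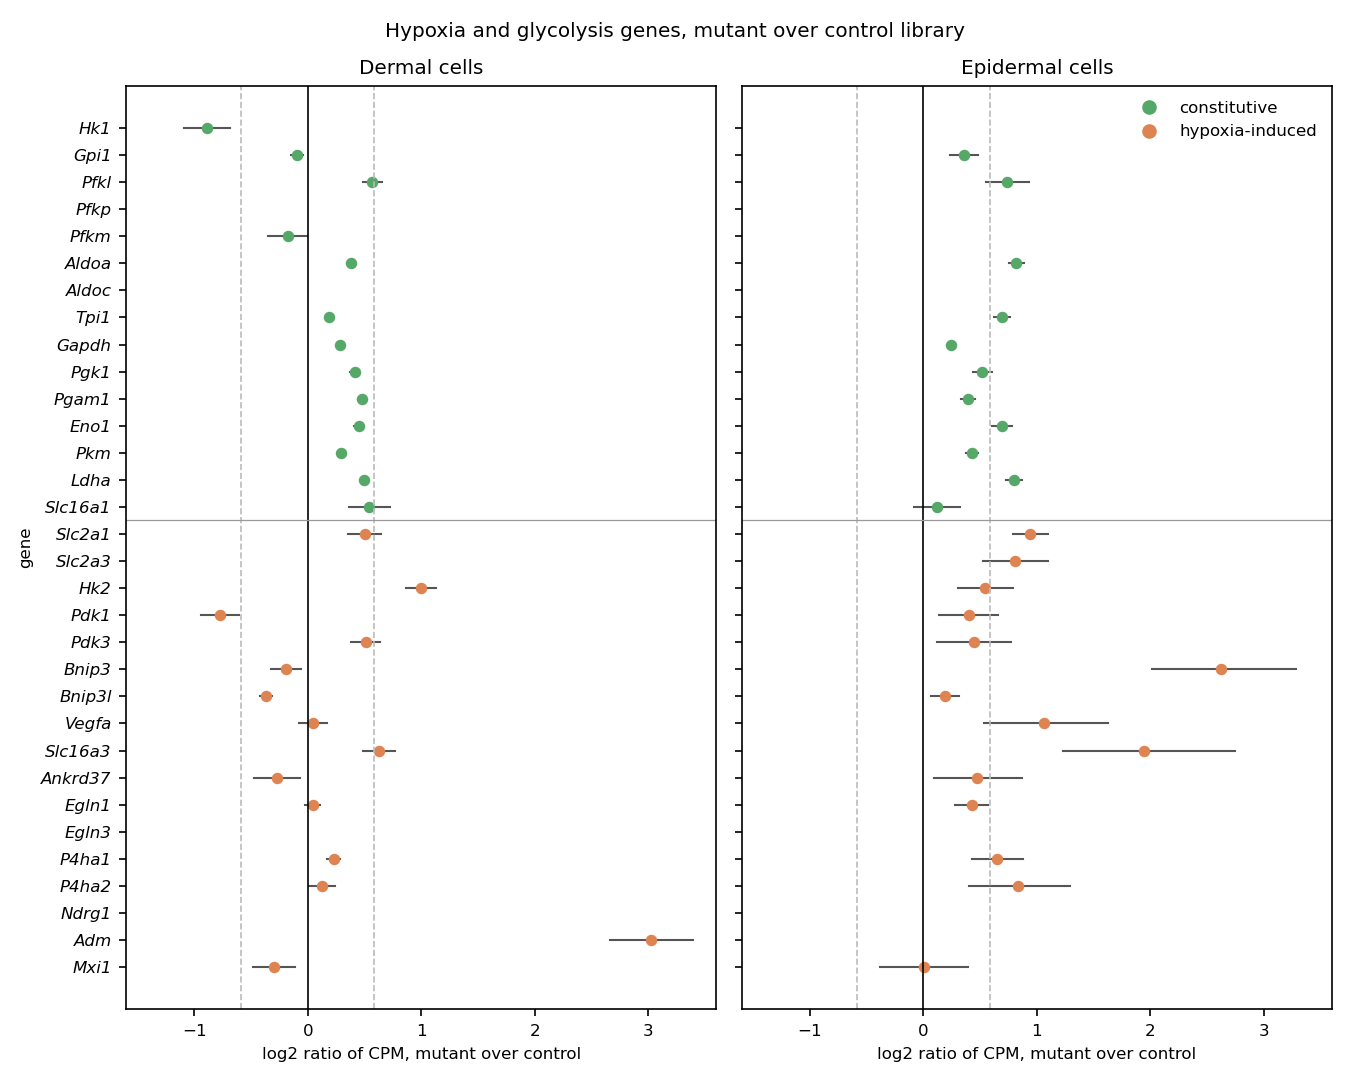
Log2 ratio of CPM, mutant over control, for each member measured in dermal (left) and epidermal (right) cells, with constitutive genes above the line and hypoxia-induced genes below it. Lines are exact 95% intervals of counting error and dashed lines mark 1.5-fold; dermal points lie on both sides of 0, from Hk1 (ratio 0.541) to Adm (8.12), and the 25 epidermal points lie above 0, Mxi1 so close to it that TMM scaling puts it below.

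The dermal members were then read within clusters, since the libraries filled different ones. Of the 7 dermal clusters with at least 50 cells of each library, Pfkl, Aldoa, Tpi1, Gapdh, Pgk1, Pgam1, Eno1 and Ldha were higher in mutant cells in all 7, which makes 8 of the 15 constitutive genes. Among the induced genes, Slc16a3 was higher and Bnip3l, Vegfa and Mxi1 were lower in all 7. Over the 8157 genes measured in the dermis, 5.65% were higher and 4.85% lower in every one of these clusters. These genes were not matched to the members by level. The range over clusters still overlapped between libraries for all 32 members: Ldha, for example, spanned 244 to 539 CPM with a median of 423 over 9 control clusters, and 438 to 848 CPM with a median of 597 over 10 mutant clusters. Hk2 was higher in 6 of the 7, at 7.16 to 29.2 CPM over control and 15.6 to 40.7 CPM over mutant clusters.

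Whether Hk1 and Pdk1 were called lower in the mutant dermis depended on which clusters were compared. Of the 7 clusters with at least 50 cells of each library, Pdk1 was lower in mutant cells in 6 and Hk1 in 3. Hk1 was at 3.78 CPM in cluster 0, 11.7 CPM in cluster 9 and 7.0 CPM in cluster 13, which together hold most mutant dermal cells and have Ptch1 between 270 and 423 CPM. The other mutant clusters had Hk1 between 9.61 and 21.4 CPM and Ptch1 between 8.39 and 28.5 CPM, and control clusters had Hk1 between 9.53 and 21.7 CPM. In the 5 clusters with at least 100 cells of each library (4680 control and 1337 mutant cells), Hk1 stood at 14.6 and 15.4 CPM, a ratio of 1.05 (0.842 to 1.30), and Pdk1 at 21.3 and 14.5 CPM, a ratio of 0.678 (0.543 to 0.840), so neither was called lower. These values are sums over the 5 clusters, whose mix differed between the libraries and was not held fixed. Cluster 1 held 1238 control and 539 mutant cells, and cluster 2 held 1415 and 120. In the same sums Adm stayed 7.62-fold (5.60 to 10.4) higher and Hk2 1.66-fold (1.40 to 1.96) higher. Slc16a3 stood 2.11-fold (1.76 to 2.53), Slc2a1 1.77-fold (1.5 to 2.10) and Ldha 1.51-fold (1.46 to 1.57) higher there. The induced median was 0.36 and the constitutive median 0.24 in these clusters, so the order of the groups changed. Without clusters 0 and 1, the clusters whose class name rests on the weakest marker ranks, these medians were 0.13 and 0.24. Adm was highest in mutant clusters 1 (26.2 CPM) and 12 (15.4 CPM), and in control cluster 12 (7.53 CPM).

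**Figure D3:**
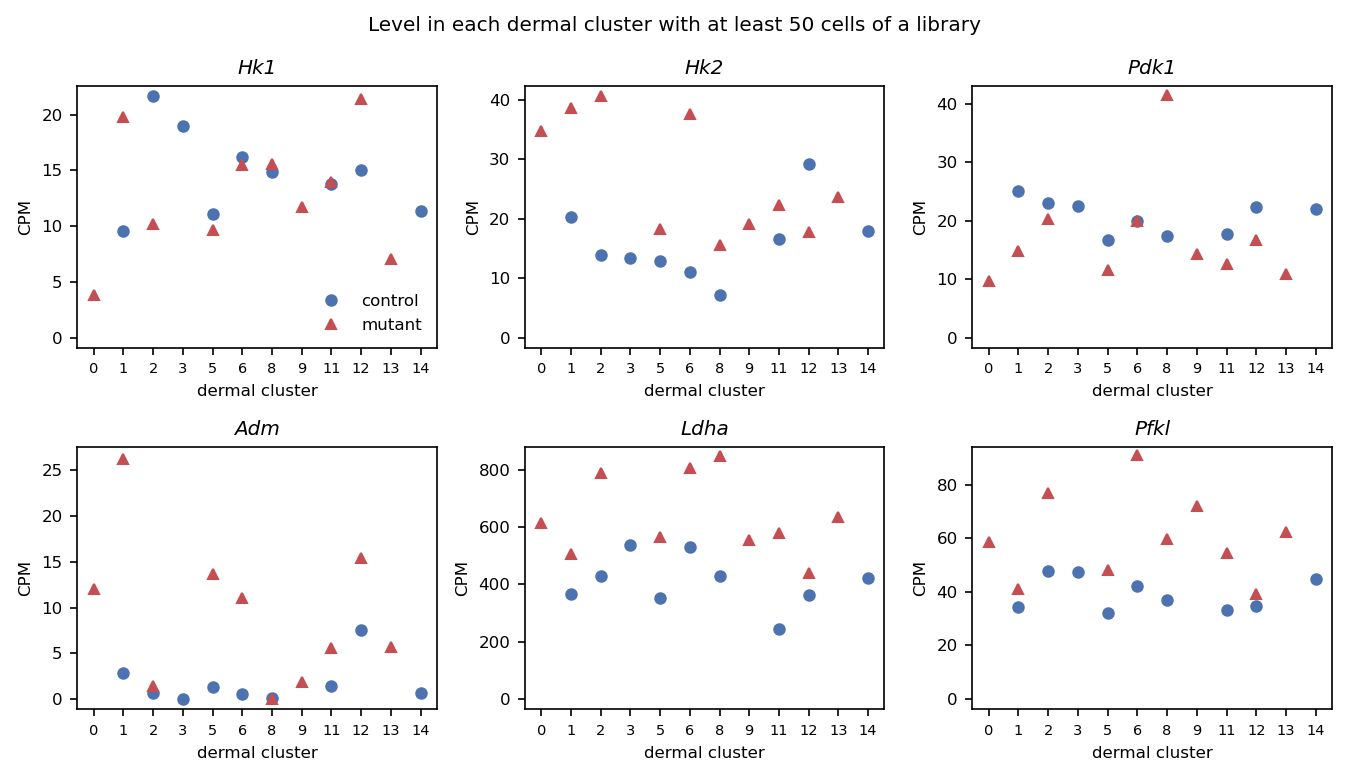
CPM of Hk1, Hk2, Pdk1, Adm, Ldha and Pfkl in each dermal cluster with at least 50 cells of a library, circles for control and triangles for mutant. Clusters 0, 9 and 13 have mutant points only; Hk1 is lowest in mutant cluster 0 at 3.78 CPM, and Ldha and Pfkl are higher in mutant cells in each of the 7 clusters that show both.

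Mutant dermal cells with at least 3 detected dermal condensate genes (674 cells) were compared with cells that had none (1883 cells), each cell thinned to 3000 UMIs. A dermal condensate is the cell cluster that forms under a hair placode. Mxi1 stood at 22.7 CPM in the condensate-gene cells and 7.26 CPM in the others, 3.13-fold higher (2.01 to 4.90). Ankrd37 was 2.38-fold (1.47 to 3.84), Bnip3 1.63-fold (1.16 to 2.27) and Bnip3l 1.54-fold (1.35 to 1.75) higher. Hk2 (18.8 against 34.0 CPM), Slc16a1 (6.92 against 15.9) and Adm (5.44 against 11.9) were lower. In all, 4 of the 27 measured members were higher and 3 lower, 25.9%, which is near the 26.5% of 8430 genes that passed 1.5-fold either way. Of the members called, Mxi1 and Ankrd37 (17.3 and 7.26 CPM) passed the 10 CPM limit only through the condensate-gene cells, where they were high. Adm and Slc16a1 passed it only through the cells with none. No tally was made of genes that reached the limit in both groups of cells. The medians were 0.098 for induced, -0.093 for constitutive and 0.063 for all genes.

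In the epidermis, where Ptch1 stood at 6.99 and 8.76 CPM and eYFP at 0.359 and 0.471 CPM, the members had a different pattern. Of the 25 measured there, 12 were higher in the mutant library and 0 lower, against 4.16% higher and 2.84% lower of 7281 genes. The 12 were 7 of 14 hypoxia-induced and 5 of 11 constitutive genes. All 25 ratios were above 1, where 61.1% of all genes were; with TMM scaling, which lowers every epidermal ratio by 0.048 on the log2 scale, 24 were, and Mxi1 was at 0.969. The medians were 0.58 for induced, 0.52 for constitutive and 0.059 for all genes. Bnip3, Slc16a3 and Vegfa passed the 10 CPM limit only through the mutant library, where they were high. Of the other 22 members, which reached it in both libraries, 9 were higher, 0 lower and 22 above 1, against 2.48% higher and 1.67% lower of such genes. Their medians were 0.45 for 11 induced and 0.52 for 11 constitutive members, and 0.055 for all such genes. Of the 24 members measured in both layers, 5 (Gpi1, Pdk1, Bnip3, Bnip3l and Ankrd37) had intervals below 1 in dermis and above 1 in epidermis; 7.65% of 6706 genes had intervals on opposite sides of 1. The comparison sets 530 control against 1329 mutant cells, with 5576729 and 10618870 UMIs.

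Bnip3 had the highest epidermal ratio, from 24 control UMIs (4.30 CPM) and 281 mutant UMIs (26.5 CPM), 6.15-fold higher (4.05 to 9.76), and lies at chr7:138890836-138909519 on the minus strand. Slc16a3 stood at 3.23 and 12.4 CPM, 3.85-fold higher (2.34 to 6.70), and Vegfa at 6.63 and 13.8 CPM, 2.09-fold higher (1.45 to 3.08). These 3 genes had fewer than 40 control UMIs each, and their lower bounds are the values to read. Slc2a1, measured more deeply, stood at 82.3 and 158 CPM, 1.92-fold higher (1.73 to 2.13). Slc2a3 stood at 24.4 and 42.7 CPM, 1.75-fold higher (1.44 to 2.13), so both glucose transporters were higher. The collagen hydroxylase genes P4ha2 (10.2 and 18.3 CPM) and P4ha1 (40.2 and 63.1 CPM) were 1.79-fold (1.32 to 2.45) and 1.57-fold (1.35 to 1.84) higher.

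Among the epidermal enzymes, Aldoa stood at 440 and 776 CPM, 1.76-fold higher (1.69 to 1.85), and Ldha at 426 and 741 CPM, 1.74-fold higher (1.66 to 1.82). Pfkl was 1.67-fold, and Tpi1 and Eno1 each 1.62-fold higher. Pgk1 (1.43), Pkm (1.35), Pgam1 (1.31), Gpi1 (1.28) and Gapdh (1.19) stayed under 1.5 with intervals above 1, and Slc16a1 (1.09, 0.944 to 1.25) had an interval that holds 1. Of the other induced genes, Hk2 (1.46), Ankrd37 (1.39), Pdk3 (1.36), Egln1 (1.34), Pdk1 (1.32) and Bnip3l (1.14) had intervals above 1 and ratios under 1.5. Mxi1 stood at 15.4 CPM in both libraries, a ratio of 1.0 (0.767 to 1.32). Adm had 1 and 2 UMIs in epidermal cells. The other 6 members under 10 CPM were Hk1, Pfkp, Pfkm, Aldoc, Egln3 and Ndrg1, at 0 to 5.92 CPM in control and 0.659 to 9.04 CPM in mutant cells. Pfkp was among them with 0 UMIs in control cells, which allows up to 0.538 CPM.

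Both epidermal clusters showed the pattern. Cluster 7 held 280 control and 737 mutant cells, and cluster 10 held 250 and 592. Of the 25 measured members, only Mxi1 in cluster 7 had a ratio below 1, at 0.991. The median ratio of the 25 members was 1.52 in each cluster. The share of all genes was not computed for single clusters. In both clusters at once 11 of the 25 members were at least 1.5-fold higher, against 2.76% of all genes: Slc2a1, Slc2a3, Slc16a3, Pfkl, Aldoa, Tpi1, Eno1, Ldha, Bnip3, Vegfa and P4ha2. Of these, Bnip3, Slc16a3 and Vegfa reached 10 CPM in the epidermis only through the mutant library, where they were high. The clusters are parts of the epidermal sums given above and are not independent of them. Bnip3 was 8.26-fold (4.62 to 16.3) higher in cluster 7 and 3.99-fold (2.17 to 8.02) higher in cluster 10.

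Other oxygen and energy genes of the epidermis had lower medians. Of 16 measured further hypoxia genes, 3 were higher and 0 lower: Fam162a, a mitochondrial protein gene (301 and 502 CPM, ratio 1.67), the collagen lysyl hydroxylase gene Plod2 (1.61) and the histone demethylase gene Kdm3a (1.60). Of 5 measured HIF factors and regulators, 1 was higher, Cited2, a HIF-induced inhibitor of HIF (16.1 and 30.2 CPM, ratio 1.87), and Hif1a itself stood at 76.4 and 77.5 CPM. None of 7 further glycolysis genes, 7 pentose phosphate genes, 19 TCA cycle genes, 84 respiratory chain genes and 13 mitochondrially encoded genes was called, and their medians were 0.080, 0.11, 0.16, 0.034 and -0.005. In the dermis, 0 of 21 further hypoxia genes were higher and 2 lower, the placental growth factor gene Pgf (12.4 and 5.55 CPM) and the carbonic anhydrase gene Car12 (10.6 and 5.43 CPM). The dermal median of that list was -0.093, and Hif1a stood at 83.8 and 70.2 CPM.

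Transcripts of red blood cells differed between the libraries in both layers. All 5 measured hemoglobin genes were called higher in mutant dermal cells (summed 174 and 1176 CPM) and in mutant epidermal cells (summed 141 and 863 CPM). Every epidermal cell of either library had under 1% of its UMIs from hemoglobin genes. The part of red cell RNA in the dermal and epidermal ratios was not tested. The 14 dermal markers summed to 445 and 325 CPM in epidermal cells. Dissociation and stress genes summed to 941 and 1164 CPM in the dermis, with 4 of 10 higher and 1 lower, and to 279 and 287 CPM in the epidermis, with 1 of 5 higher and 1 lower. Among cells at or below the median stress share of their class, Hk2 was 2.02-fold higher in the dermis, and Bnip3 7.4-fold and Slc2a1 2.02-fold higher in the epidermis. Dermal Adm was 13.8-fold (8.93 to 22.0) higher in those cells. Among dermal cells with no UMI of 8 G2M genes, Adm was 5.38-fold (3.68 to 7.99) higher and Hk1 had a ratio of 0.704 (0.552 to 0.889), which is not called.

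Across all 10 classes the constitutive median was above 0, from 0.15 in mural cells and 0.16 in muscle to 0.57 in macrophages and 0.70 in erythroid cells. Of the 15 members measured in every class, 8 had a ratio above 1 in all 10: Pfkl, Aldoa, Tpi1, Gapdh, Pgk1, Eno1, Ldha and Egln1. Of 5054 genes measured in every class, 1.9% did. With TMM scaling 7 of the 8 did, and Gapdh did not in Schwann cells. The 5054 genes were not matched to the members by level. Counting error turns the direction of low genes more easily, as in mutant melanoblasts with 309752 UMIs. Slc16a3 reached 10 CPM in both libraries in 5 classes, was above 1 in all 5 and was called higher in 3 of them (dermis, macrophages and mast and other blood cells). In 4 further classes it was measured only through the mutant library. The induced median ranged from -0.095 in endothelial cells to 0.58 in the epidermis. These classes come from the same 2 libraries and are not independent of each other.

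**Figure D4:**
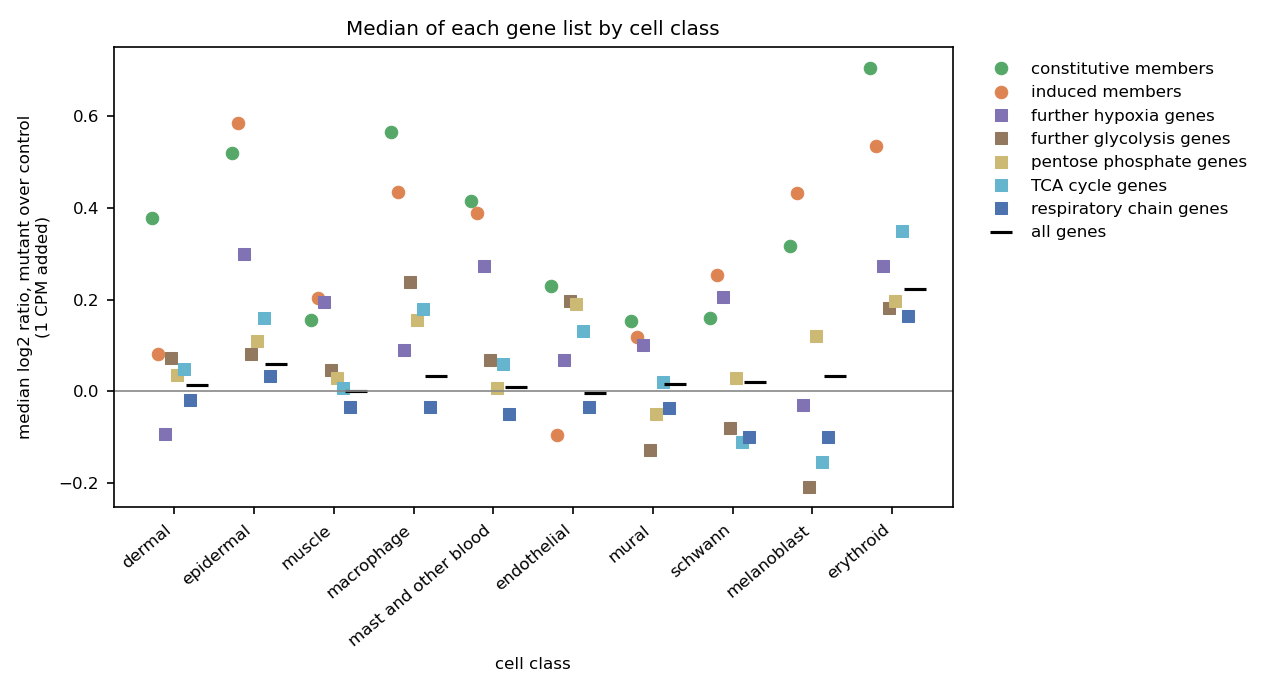
Median log2 ratio, mutant over control with 1 CPM added, of each gene list in each cell class, for genes that reached 10 CPM. Circles are the 2 groups of members, squares other energy lists and dashes all genes; the constitutive median is above that of all genes in all 10 classes, and in the epidermis both groups of members (0.58 and 0.52) are above every other list shown.

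Outside the skin layers the calls differed by class. The counts include members that reached 10 CPM in only 1 library, such as endothelial Slc16a1 (2.30 CPM in control, 6.48-fold higher). No tally of members with 10 CPM in both libraries was made for these classes. Macrophages, with 352 and 331 cells, had 8 of 24 members higher and 1 lower, against 4.98% and 3.96% of all genes (8.94% together). The 8 were Slc2a1 (14.6 and 28.4 CPM), Slc16a3 (17.9 and 54.8 CPM, 3.06-fold, 2.32 to 4.08), Slc16a1, Pfkl, Pfkp, Tpi1, Ldha (746 and 1129 CPM) and Egln1, of which Ldha is under 1.5-fold with TMM scaling, and Mxi1 was lower (26.2 and 13.7 CPM). Hemoglobin genes summed to 8878 and 8322 CPM in macrophages. The class of mast and other blood cells had 8 of 28 higher and 0 lower, against 6.09% and 6.4%, with Slc16a3 at 64.7 and 113 CPM and Bnip3 at 22.9 and 47.6 CPM. Its hemoglobin sum was 139.9 CPM in control and 9857 CPM in mutant cells, and its part in these ratios was not tested. Schwann cells had 5 of 23 higher and 1 lower, against 8.44% and 5.82%, and 3 lower with TMM scaling. Endothelial cells had 3 of 24 higher and 2 lower, against 7.3% and 8.22%. Muscle had 1 of 23 higher, Slc2a1 (11.6 and 17.7 CPM), and 0 lower, against 2.34% and 1.1% (3.44% together). Mural cells had 0 of 22 called, where 7.3% of genes were higher and 5.98% lower. Melanoblasts, with 76 and 49 cells, had 7 of 21 higher and 1 lower, against 17.9% and 17.1%. Erythroid cells had 14 of 23 higher and 0 lower, against 25.7% and 9.54%, and 8 higher with TMM scaling, which lowers their ratios by 0.16 on the log2 scale. There the hemoglobin genes summed to 355803 CPM in control and 270478 CPM in mutant cells, and Ptch1 stood at 3.12 and 167 CPM. The part of these shares and of dermal RNA in the erythroid ratios was not tested.

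The class with the highest level of a gene was the same in both libraries for 25 of the 32 members. Mast and other blood cells led for 10 genes in control and 11 in mutant cells, with Ldha at 2025 and 2628 CPM, Hk1 at 70.0 and 75 CPM and Slc16a3 at 64.7 and 113 CPM. Dermal cells led for Vegfa (24.8 and 25.6 CPM), P4ha1, P4ha2 and Pfkm in both libraries. Epidermal cells led for Slc2a3, Slc16a1 (53.8 and 58.4 CPM), Pgam1 (556 and 730 CPM) and Pdk1 (31.0 and 40.9 CPM). Endothelial cells led for Ndrg1 (32.2 and 27.5 CPM), Adm, Egln3 and Ankrd37. Macrophages led for Hk2 (45.8 and 57.2 CPM) and Bnip3 (43.9 and 47.8 CPM), though in mutant cells mast and other blood cells were close at 57.1 CPM for Hk2 and 47.6 CPM for Bnip3. Erythroid cells led for Bnip3l, which clears mitochondria from maturing red cells, at 368 and 349 CPM, and had the lowest Ldha at 256 and 469 CPM. For Slc2a1 the leading class was endothelial in control (150 CPM) and epidermal in mutant cells (158 CPM).

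**Figure D5:**
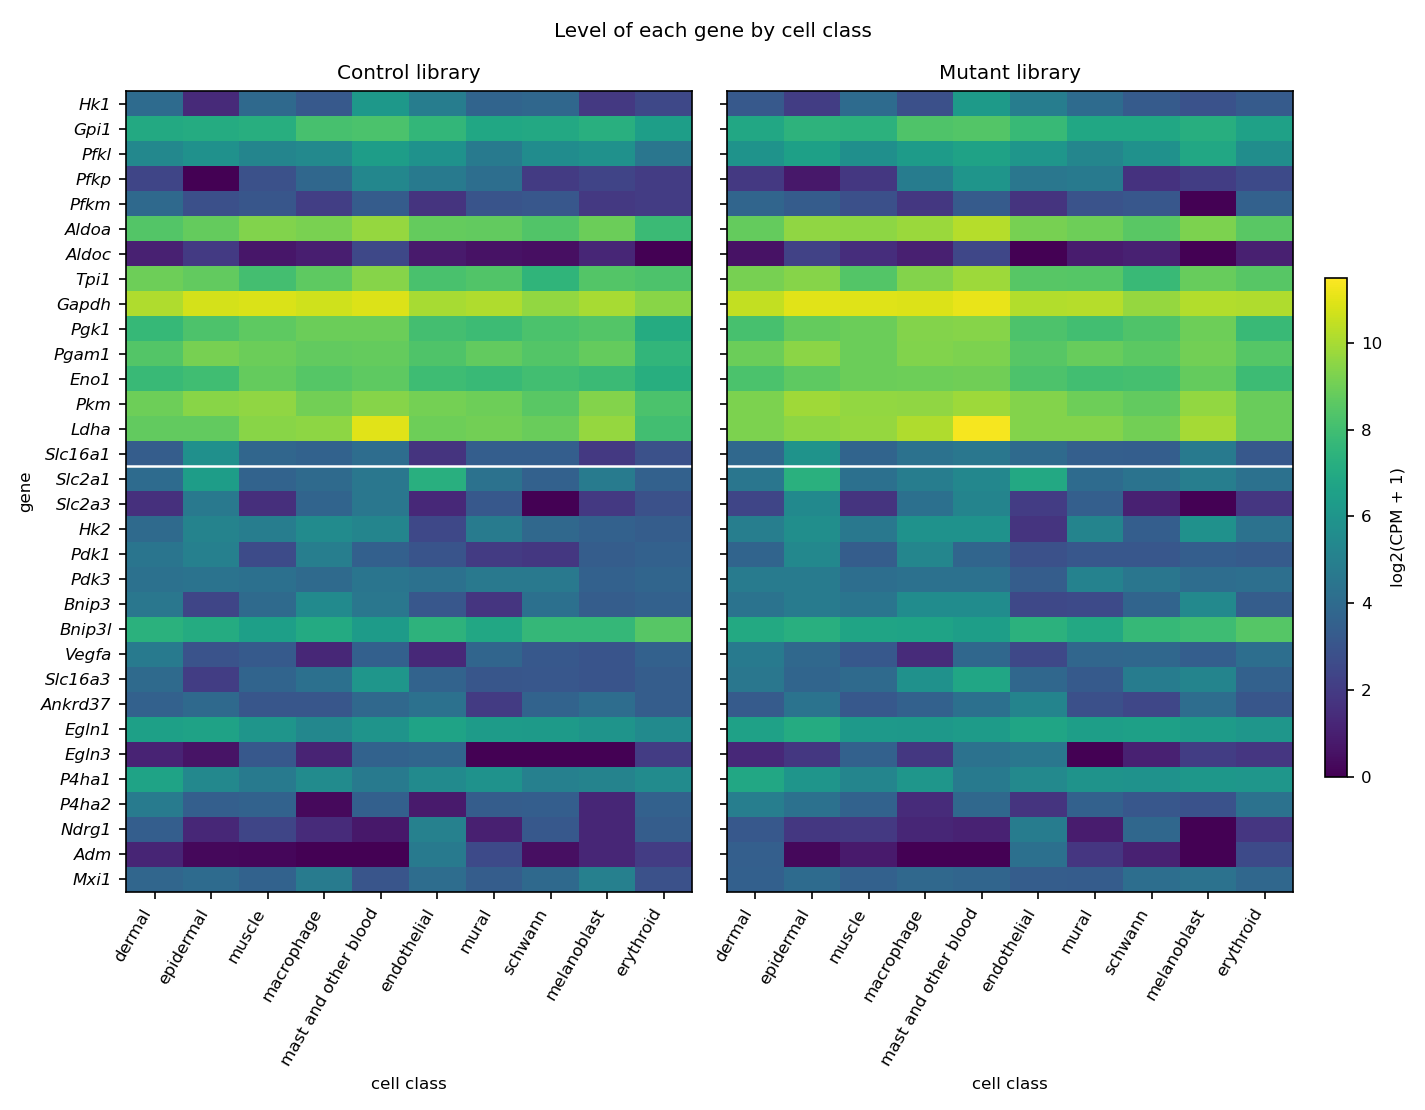
Level of each member, as log2(CPM + 1) on the colour scale, in each cell class of the control (left) and mutant (right) library, with constitutive genes above the white line. Dermal cells hold the highest Vegfa (24.8 and 25.6 CPM), endothelial cells the highest Adm (24.6 and 18.1 CPM) and mast and other blood cells the highest Ldha (2025 and 2628 CPM) of the 10 classes in each library.

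The levels of epidermis and dermis were compared within each library. Of all genes, 44.4% in the control and 39.1% in the mutant library differed by 1.5-fold or more between the layers. Relative to dermis, 3 of the 14 induced genes that reached 10 CPM in a layer of each library were at least 1.5-fold higher in epidermis in each library: Slc2a1 (5.38-fold in control and 7.30-fold in mutant), Slc2a3 (12.2-fold and 10.0-fold) and Hk2 (2.38-fold and 1.74-fold). Lower in epidermis were 4: Vegfa (3.74-fold and 1.85-fold), Slc16a3 (4.53-fold and 1.81-fold), P4ha1 (2.50-fold and 1.86-fold) and P4ha2 (2.62-fold and 1.60-fold). Of 12 constitutive genes, Slc16a1 (5.66-fold and 4.22-fold) and Pgam1 (1.61-fold and 1.53-fold) were higher in epidermis. Of all 8061 genes, 8.42% were higher and 23.9% lower in epidermis in both libraries. The 5 higher and 4 lower of 26 members (34.6%) are a share near that of all genes, and 0 of the 12 constitutive members were lower. The layers differed in the lactate carrier they held: Slc16a3 made up 60.6% (58.1 to 63.0) and 62.0% (59.1 to 64.8) of the Slc16a1 and Slc16a3 UMIs in dermis, and 5.66% (3.39 to 8.80) and 17.6% (14.9 to 20.5) in epidermis. Bnip3 stood 5.28-fold (3.53 to 8.27) higher in dermis than in epidermis in control cells and had a ratio of 0.751 (0.652 to 0.867) in mutant cells. Its share of the Bnip3 and Bnip3l UMIs in epidermis was 3.10% (1.99 to 4.57) and 14.7% (13.1 to 16.3).

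Induced members were also set against each other from cell to cell. Each cell was thinned to 3000 UMIs and grouped by its UMIs of the other induced members. The limits of the high and low group followed from the sum without the member itself and differed between members. In control dermal cells Slc2a1 set 3926 against 4514 cells and Bnip3l 2696 against 2823. Genes other than the induced members were grouped by all induced members, at least 2 against at most 1 UMIs in these cells. The median ratio there was 1.13 over 14 induced genes, 0 of which reached 1.5, where 0.0501% of other genes did. In mutant dermal cells, where other genes were grouped at least 3 against at most 1, the median was 1.28. There 5 of 14 induced genes reached 1.5, where 2.19% of other genes did. The shares of other genes thus rest on groups of cells unlike those of some members. Of the 5 members, Ankrd37 (12.5 and 7.34 CPM) and Adm (12.2 and 7.35 CPM) passed the 10 CPM limit only through the high group. Other genes with high ratios in these cells included Ccn3, Clu and Arhgap20, which are leading genes of dermal cluster 1. The part of cluster mix in these ratios was not tested. With cells thinned to 5000 UMIs, where the limits for other genes were at least 4 and at most 1 in both libraries, the medians were 1.22 and 1.25. The libraries are therefore not compared on this measure. In epidermal cells 2 of 11 members in the control and 1 of 14 in the mutant library reached 1.5, where 12.4% and 6.44% of other genes did. These are weak relations in sparse counts and are given as a description.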

How the data were processed

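The authors deposited 1 matrix per library of whole-number UMI counts, without normalization, for which the submitters' processing notes name Cell Ranger 5.0.1 and mm10. Coordinates of genes and promoters are those of GRCm38; 32158 of 32286 features matched GENCODE M21 by identifier. The members and lists were chosen with earlier results of these data known.

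Barcodes with under 1000 genes or over 10% mitochondrial UMIs were left out, and Scrublet (expected rate 8%) removed 593 control (4.89%) and 269 mutant (3.06%) doublets. Of 2000 variable genes, 1984 remained after 223 member and metabolic symbols were excluded. Cells were clustered with scanpy 1.11.5 (30 components, 15 neighbours, Leiden resolution 1). A cluster took the class with the highest mean marker log ratio, given at least 3 markers at 10 CPM, no more markers of another class than its own among its 10 leading genes, and at least 1 own marker there or most own markers at 10 CPM. These leading genes were taken against clusters of other classes, a choice made after clusters 0 and 1 had held 0 own and 1 other marker against all cells. Among the leading genes against all other cells, markers of another class could exceed the cluster's own by at most 1. A cluster of low depth also needed an own leading marker. Cluster 23 (30 and 103 cells) had 3 other markers and 1 own against all other cells and stayed unnamed.

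UMIs were summed per class and library and expressed as CPM. With 1 library per group no model was fitted. Ratio intervals are exact conditional binomial, share intervals Clopper-Pearson, and the limit for 0 UMIs is 3 counts. Ratios were checked on simulated data. Members with at least 10 CPM are described with values, and of other lists at most the 3 highest and 3 lowest ratios are named. Alternatives covered the CPM limit, added CPM, TMM scaling, thinning, doublets, mitochondrial limit, hemoglobin, cell cycle, stress share, clustering and the fold. PCR duplicates are collapsed by UMI. Counting reads by strand is not given in the sources used here. Pseudogene copies could take reads of Gapdh, Pgk1, Ldha and Aldoa, and annotated copies held few UMIs, such as 812 of Eno1b beside 50774 of Eno1. A comparison of dermal cells by their Hedgehog target UMIs and 1 marker list are not reported here.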

Additional observations from a re-analysis of the deposited data

Results flagged for a closer look

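Of 24 members measured in both layers, 5 had intervals on opposite sides of 1 in the dermis and in the epidermis, where 7.65% of 6706 genes did, and all 5 were below 1 in dermis and above 1 in epidermis, as 5.01% of genes were. With 1 library per group the difference between layers was not tested. The mutant over control ratio was 0.936 in dermis and 1.28 in epidermis for Gpi1, 0.586 and 1.32 for Pdk1, 0.875 and 6.15 for Bnip3, 0.774 and 1.14 for Bnip3l, and 0.829 and 1.39 for Ankrd37. The 5 dermal clusters with at least 100 cells of each library were also summed, without holding their mix fixed. In these sums the dermal ratio was 0.678 (0.543 to 0.840) for Pdk1 and 0.863 (0.804 to 0.925) for Bnip3l. The intervals of Gpi1 (0.926, 0.853 to 1.004), Bnip3 (1.08, 0.910 to 1.28) and Ankrd37 (0.985, 0.721 to 1.32) held 1.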

How the results depend on the processing

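No paired analysis was possible because each group is 1 library, and no library could be left out. No median changed sign under the alternatives run. Of 83 values under the listed alternatives 67 were counted as unmoved, as were 6 of 12 under alternatives chosen after seeing the data. The limit was counting error for the dermal and epidermal medians and 1.5 times for counts of genes. The alternative of cells with hemoglobin under 1% left out 1 control and 5 mutant dermal cells and 0 epidermal cells. Its values, which are counted as unmoved, could therefore hardly move. The Hk2 shares, the cell-to-cell medians and the Hedgehog comparison that is not reported here had no interval of counting error. The dermal constitutive median of 0.38 became 0.29 with a 1 CPM limit, 0.29 with 10 CPM added, 0.30 with cells thinned to 3000 UMIs, 0.23 in cells with no G2M UMI and 0.28 with 5 shared HIF targets moved to the induced genes. It became 0.24 without clusters 0 and 1 and 0.24 in clusters with at least 100 cells of each library. The dermal induced median of 0.08 became 0.30 with the targets moved and 0.36 in those shared clusters. The epidermal constitutive median of 0.52 became 0.39 in cells with no G2M UMI and 0.39 with the targets moved. The cause was not tested. Genes called in the dermis numbered 759, and 2076 at a 1 CPM limit, 243 at 50 CPM, 308 at 2-fold, 499 in the shared clusters and 462 with 10 CPM required in both libraries. In the epidermis they numbered 510, and 2105, 121 and 192 under the first 3 of these, 276 with the limit in both libraries, 982 after thinning and 1943 in cells with no G2M UMI, 93 control and 178 mutant cells. With TMM scaling the share of calls that were higher was 46.6% in place of 47.7% in the dermis and 53.7% in place of 59.4% in the epidermis. Ratios of genes under 40 UMIs in a library, such as epidermal Bnip3, are limited by depth.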
